A study of Mus musculus with 12 samples.

Results

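The transcripts of 8 genes that mark or accompany T cell exhaustion were followed in 12 MC38/hPD-L1 tumors: Lag3, Havcr2, Cd160, Cd244, Btla, Tox, Entpd1 and Lgals9. They were taken by name, 8 of the 32792 gene names in the deposited tables, as the inhibitory genes linked to exhaustion other than the one for PD-1, and each was also set against Cd3e, a chain of the T cell receptor complex, in the same tumor. MC38 is a mouse colon adenocarcinoma line, here made to carry human PD-L1 and grown in adult female C57BL/6NJ mice. Each tumor came from a mouse given 1 intraperitoneal dose on day 8 and was collected 72 h later. The groups were ALPN-202, a variant CD80 domain fused to Fc that binds PD-L1, CD28 and CTLA-4 (100 µg, 4 tumors), anti-PD-L1, the antibody durvalumab (100 µg, 4 tumors), and Fc control (75 µg, 4 tumors). ALPN-202 binds CD28 and CTLA-4 of the mouse but not its PD-L1, so that its PD-L1 target in this model is the human protein on the transduced tumor cells. The paper describes durvalumab, too, as an antibody to human PD-L1.

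Exhaustion is the state that T cells enter under lasting antigen exposure, in which several inhibitory receptors are displayed together and effector functions decline. The same receptors appear for a time on any freshly activated T cell, and several of them are also found on NK cells or myeloid cells. LAG-3 (Lag3) binds MHC class II, TIM-3 (Havcr2) is carried by T cells, macrophages and dendritic cells, CD160 and BTLA share the ligand HVEM, and 2B4 (Cd244) binds CD48 and is prominent on NK cells. The other 3 genes are not receptors: TOX is the transcription factor that sets the exhausted program, CD39 (Entpd1) is an ectoenzyme that breaks down extracellular ATP, and galectin-9 (Lgals9) is a secreted lectin described as a TIM-3 ligand.

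The genes lie on 7 chromosomes, and Havcr2 and Lgals9 share chromosome 11 (NCBIM37, the build of the count table). Lag3 lies at chr6:124854379-124861723 on the minus strand, Havcr2 at chr11:46268437-46294757 on the plus strand and Cd160 at chr3:96602686-96633274 on the minus strand. Cd244 lies at chr1:173489324-173515449 (plus), Btla at chr16:45224428-45253008 (plus), Tox at chr4:6613500-6918704 (minus), Entpd1 at chr19:40686856-40816092 (plus) and Lgals9 at chr11:78776476-78798448 (minus).

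Promoter windows, 250 bases before to 50 after an annotated start, were found for 6 of the 8 genes in RefSeq (GRCm38.p6, a later build than that of the counts), 8 windows in all. Those of Havcr2 and Cd160 are shown, since these are the members that separated ALPN-202 tumors from the rest most fully on the scales described below. Capitals mark matches, on either strand, to the AP-1 motif TGANTCA, the PU.1 motif GAGGAAGT and the RUNX motif TGTGGT, and no match overlapped another. The Havcr2 window is chr11:46454681-46454980 (plus strand) and the Cd160 windows, from separate annotated starts, are chr3:96829302-96829601 and chr3:96814472-96814771 (minus strand).
Havcr2: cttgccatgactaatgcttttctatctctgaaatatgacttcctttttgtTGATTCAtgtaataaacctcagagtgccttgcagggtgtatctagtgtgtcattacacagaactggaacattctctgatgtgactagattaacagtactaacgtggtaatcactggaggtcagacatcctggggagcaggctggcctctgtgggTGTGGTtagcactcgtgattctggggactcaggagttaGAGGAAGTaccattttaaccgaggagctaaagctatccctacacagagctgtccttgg
Cd160, first window: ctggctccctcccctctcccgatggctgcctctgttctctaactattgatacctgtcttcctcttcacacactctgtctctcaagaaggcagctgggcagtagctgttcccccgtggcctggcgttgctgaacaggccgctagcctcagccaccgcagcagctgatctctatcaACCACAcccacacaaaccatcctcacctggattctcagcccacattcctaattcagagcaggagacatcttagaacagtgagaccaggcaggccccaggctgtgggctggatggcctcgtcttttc
Cd160, second window: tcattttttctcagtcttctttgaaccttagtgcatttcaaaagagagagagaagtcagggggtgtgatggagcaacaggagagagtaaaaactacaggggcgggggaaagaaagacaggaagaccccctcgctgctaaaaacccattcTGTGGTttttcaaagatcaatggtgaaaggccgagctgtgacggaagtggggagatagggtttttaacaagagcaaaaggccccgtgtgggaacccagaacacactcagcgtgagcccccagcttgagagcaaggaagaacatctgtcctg
The Havcr2 window held 1 match to each motif, and each Cd160 window held 1 RUNX match and no other. Of the 32851 mouse promoter windows of this length, 7.81% held the AP-1 motif, 3.20% the PU.1 motif and 16.8% the RUNX motif. The Btla window held a PU.1 and a RUNX match, that of Cd244 an AP-1 match, and that of Lgals9 and 1 of 2 for Entpd1 a RUNX match. These are matches of letters, and no binding was measured here.

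Total counts were 3988266 to 10320376 per tumor in the ALPN-202 group, 8778710 to 10448187 in the anti-PD-L1 group and 6790794 to 10692817 in the Fc control group. The lowest total was that of replicate 4 of ALPN-202, against a median of 9692905 over all tumors. Replicate 4 of ALPN-202 and replicate 1 of Fc control carried a trend with gene length, in which short genes stood 1.31 and 0.87 log2 units above, and long genes 1.01 and 0.98 below, the median of the tumors. The other 10 tumors lay within −0.19 to 0.19 for short and long genes alike. The members have longest annotated transcripts of 1586 (Lgals9) to 4221 bases (Entpd1), against 1436 for Cd3e. The edgeR results of both ALPN-202 comparisons are therefore given with and without these libraries, and other results where stated. In 4 tumors, replicate 4 of ALPN-202, replicates 2 and 4 of anti-PD-L1 and replicate 4 of Fc control, summed adipocyte markers were 946, 8523, 1492 and 996 TPM, and summed epithelial markers 51.9, 1056, 227 and 107 TPM. In the other 8 tumors these sums were at most 236 and 14.6 TPM, so that epithelial markers were low in most of the tumors although the line is from a colon carcinoma.

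On TPM, which is corrected for transcript length and allows genes to be compared, Lgals9 was the most abundant member in Fc control tumors (124 ± 10.2 TPM, SD, n = 4), followed by Entpd1 (34.9 ± 6.70), Havcr2 (27.2 ± 3.94), Lag3 (15.5 ± 7.33) and Cd244 (7.39 ± 1.93). Cd160 (0.604 ± 0.345), Btla (0.497 ± 0.277) and Tox (0.175 ± 0.0894) were each near or below 1 TPM. Within this order Entpd1 and Havcr2 overlapped across tumors, as did Havcr2 with Lag3, Lag3 with Cd244, and Cd160 with Btla. Tox rested on 1 to 19 reads per tumor and did not pass the filter on low counts, so 7 of the 8 members entered the fit across all genes. Btla rested on 3 to 13 reads and Cd160 on 3 to 43.

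**Figure D1:**
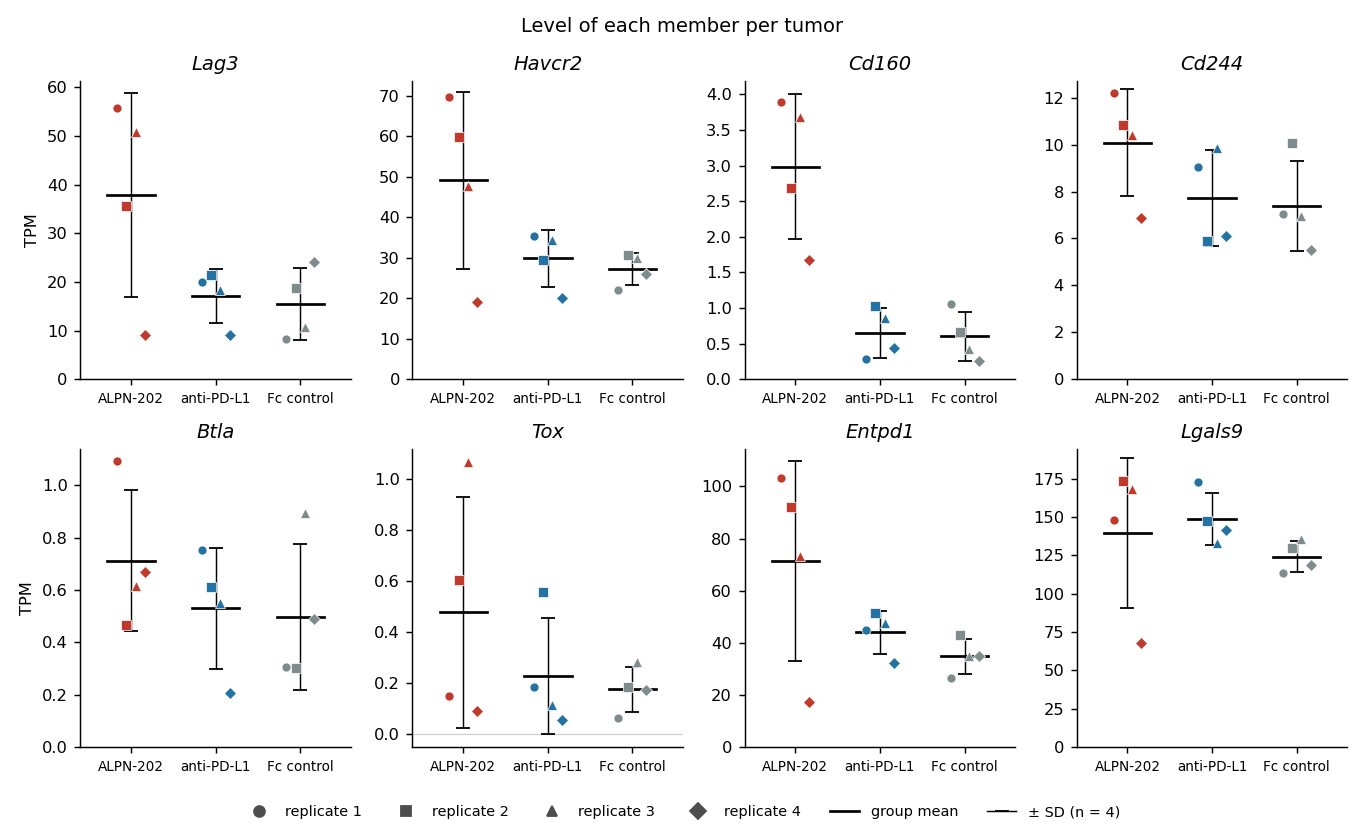
Level of each member in TPM (linear axis) in the 4 ALPN-202, 4 anti-PD-L1 and 4 Fc control tumors, with marker shapes for the replicate number, thick lines for group means and bars for SD. Cd160 was at least 1.68 TPM in every ALPN-202 tumor and at most 1.06 TPM elsewhere, while replicate 4 of ALPN-202 lay apart from its group for Lag3, Havcr2, Entpd1 and Lgals9.

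The first comparison asks what ALPN-202 did to these transcripts relative to Fc control. Cd160 was about 5-fold more abundant in ALPN-202 tumors and was the only member whose groups did not overlap in TPM. The mean TPM of Lag3, Entpd1 and Havcr2 over all 4 ALPN-202 tumors was 1.81- to 2.45-fold that of Fc control, with 3 of these tumors above every control and replicate 4 not. Cd244, Btla and Lgals9 differed by less, and Tox, at 2.72-fold, rested on at most 19 reads. In a bulk tumor, fewer cells of a type and less RNA per cell cannot be told apart. With edgeR's quasi-likelihood test over 14142 genes, adjusted by Benjamini-Hochberg, 0 of the 7 tested members and 0.00% of all genes passed an adjusted p of 0.05. At an unadjusted p under 0.05, 4 of the 7 were higher in ALPN-202 tumors, against 7.20% of all genes tested. One of these, Cd160, passed the filter on low counts only through the ALPN-202 group, where 4 of 4 tumors reached the required 1.03 CPM, against 1 of 4 in each of the other groups. Of the other 6 tested members, 3 were higher at that level (Lag3, Entpd1 and Havcr2).

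Among the receptors, Cd160, which is anchored to the surface of NK and CD8+ T cells, had 3.89, 2.68, 3.69 and 1.68 TPM in ALPN-202 tumors 1 to 4, against 1.06, 0.661, 0.431 and 0.263 TPM in Fc control tumors. The lowest ALPN-202 tumor was above the highest Fc control tumor, at a mean 4.94-fold that of the controls (exact two-sided permutation test on log2(TPM + 0.1), p = 0.0286, the smallest that 4 against 4 allows). Of all genes, 1.04% were higher without overlap in this comparison. The reads behind it were few, 12 to 43 per ALPN-202 tumor and 3 to 11 per Fc control tumor. Its edgeR log2 fold change was 2.31 (SE 0.53), with an adjusted p of 0.285, in a fit that it entered through the group where it was high.

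Lag3, the MHC class II receptor, had 55.7, 35.7, 50.7 and 9.07 TPM in ALPN-202 tumors and 8.24, 18.7, 10.7 and 24.2 TPM in Fc control tumors. Of the ALPN-202 tumors, 3 stood above every control and replicate 4 stood within the control range, so the groups overlapped (exact permutation p = 0.143). In edgeR the log2 fold change was 1.32 (SE 0.41, adjusted p = 0.351).

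Havcr2, the gene of TIM-3, had 69.8, 59.7, 47.7 and 19.1 TPM in ALPN-202 tumors and 22.1, 30.7, 29.8 and 26.0 TPM in Fc control tumors. Again 3 ALPN-202 tumors exceeded every control, and replicate 4 was below them all (exact permutation p = 0.171, edgeR log2 fold change 0.90, SE 0.24, adjusted p = 0.306). CPM are counts scaled to a library total adjusted by TMM normalization, and carry no length correction. On this scale replicate 4 had 46.7 against a highest Fc control value of 40.3, so that the Havcr2 groups did not overlap (exact permutation p = 0.0286). Of all genes, 2.67% were higher without overlap on CPM, and Cd160 and Havcr2 were the members among them. Replicate 4 is the length-trend library, and the effect of that trend or of the TMM adjustment on this difference in scale was not tested.

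Cd244, the 2B4 receptor, had 12.2, 10.9, 10.4 and 6.86 TPM in ALPN-202 tumors and 7.04, 10.1, 6.94 and 5.50 TPM in Fc control tumors, and the ranges overlapped (exact permutation p = 0.114, edgeR log2 fold change 0.54, SE 0.27, adjusted p = 0.606). Btla, which like Cd160 encodes a receptor for HVEM, had 0.467 to 1.09 TPM in ALPN-202 tumors and 0.301 to 0.892 TPM in Fc control tumors, with an edgeR log2 fold change of 0.68 (SE 0.49, adjusted p = 0.841). These values rested on 4 to 13 reads per tumor in the 2 groups.

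Among the genes that are not receptors, Entpd1, the CD39 ectoenzyme, had 103.3, 92.2, 73.3 and 17.2 TPM in ALPN-202 tumors and 26.6, 43.0, 34.9 and 35.0 TPM in Fc control tumors. As for Havcr2, 3 ALPN-202 tumors were above every control and replicate 4 was below them all (exact permutation p = 0.2, edgeR log2 fold change 1.03, SE 0.31, adjusted p = 0.334). Lgals9, the galectin-9 gene, had 148.3, 173.5, 168.2 and 68.2 TPM in ALPN-202 tumors and 113.2, 129.5, 135.6 and 118.4 TPM in Fc control tumors, a mean difference of 1.12-fold (exact permutation p = 0.886, edgeR log2 fold change 0.22, SE 0.16, adjusted p = 0.859). Tox had 0.150, 0.603, 1.07 and 0.0917 TPM in ALPN-202 tumors, from 2, 11, 19 and 1 reads, and 0.0631 to 0.282 TPM in Fc control tumors, from 1 to 5 reads. The Tox ranges of the groups overlapped (exact permutation p = 0.314).

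Leaving out the length-trend libraries, both those named above, 4 members passed in edgeR against 7.47% of all genes. These were Lag3 (log2 fold change 1.43, adjusted p = 0.0499), Havcr2 (1.07, adjusted p = 0.0254), Entpd1 (1.28, adjusted p = 0.014) and Cd160 (2.94, adjusted p = 0.015). Cd160 stands apart in this count and in that of DESeq2 below, since with all 12 tumors it passed the filter only through the ALPN-202 group, where it was high. Leaving out replicate 4 of ALPN-202 alone, Lag3, Havcr2 and Entpd1 passed (2.97% of all genes). They also passed without the 4 tumors high in adipocyte markers (2.65%). All of these exclusions remove replicate 4 of ALPN-202, the lowest tumor of its group in TPM for these genes. Leaving out any other single tumor, no member passed. The paper speculates that an ALPN-202 mouse without raised immune markers may not have received a full dose, and does not name the tumor. Every ALPN-202 tumor was above every Fc control tumor in summed T cell markers (at least 106 against at most 92.1 TPM). The same held for NK cell markers (75.5 against 65.3 TPM). Sums of macrophage and monocyte, dendritic cell and regulatory T cell markers overlapped. The part of dose in these values was not tested. With all 12 tumors DESeq2 called Havcr2 and Cd160 (adjusted p = 0.0336 and 0.00433, 1.72% of all genes) and limma-voom called none.

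**Figure D2:**
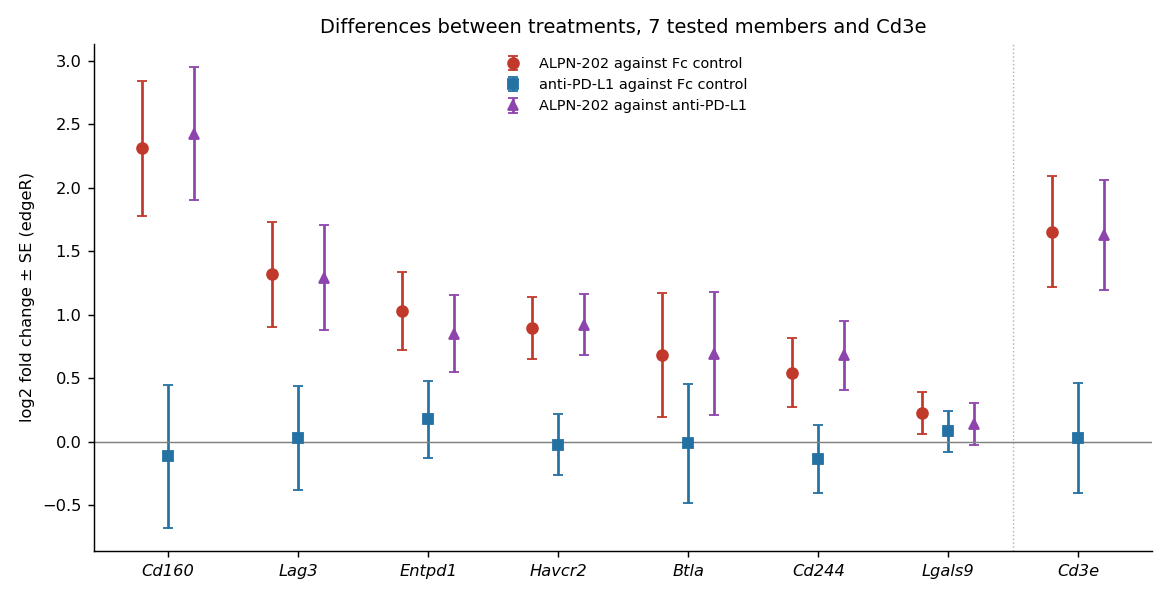
edgeR log2 fold changes (y axis, bars are SE) of the 7 tested members and, right of the dotted line, of Cd3e, for ALPN-202 against Fc control, anti-PD-L1 against Fc control and ALPN-202 against anti-PD-L1. The estimates for both ALPN-202 comparisons run from 2.31 and 2.43 (Cd160) to 0.22 and 0.14 (Lgals9), and those for anti-PD-L1 against Fc control lie between −0.14 and 0.18.

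The second comparison asks whether an antibody to human PD-L1 alone moved the same transcripts. None of the 7 tested members passed in edgeR for anti-PD-L1 against Fc control, where 0.00% of all genes did, and none had an unadjusted p under 0.05 in either direction (1.44% of all genes were higher at that level). DESeq2 and limma-voom called none of them. Lag3 had 19.9, 21.3, 18.3 and 9.10 TPM in anti-PD-L1 tumors, within the control range of 8.24 to 24.2 TPM, and an edgeR log2 fold change of 0.03 (SE 0.41). Cd160 had 0.283, 1.03, 0.863 and 0.434 TPM, against 0.263 to 1.06 TPM in Fc control tumors. The log2 fold changes of the other tested members were −0.02 for Havcr2 (SE 0.24), −0.14 for Cd244 (SE 0.27), −0.01 for Btla (SE 0.47), 0.18 for Entpd1 (SE 0.30) and 0.08 for Lgals9 (SE 0.16). Errors of this size leave room for changes well beyond the estimates, least so for Lgals9. Lgals9 came nearest to a separation, with 172.8, 147.1, 133.3 and 141.8 TPM in anti-PD-L1 tumors, of which 3 were above every Fc control tumor (exact permutation p = 0.0571). No member was higher without overlap in TPM in this comparison, as 0.852% of all genes were.

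The third comparison sets ALPN-202 against anti-PD-L1, which share a binding target on the tumor cell. It uses the same ALPN-202 tumors as the first comparison, so its values are not independent of it. Cd160 again separated the groups, at 1.68 to 3.89 TPM in ALPN-202 tumors and 0.283 to 1.03 TPM in anti-PD-L1 tumors, a 4.58-fold difference of means (exact permutation p = 0.0286, against 1.38% of all genes higher without overlap). In edgeR 0 of 7 members and 0.00% of all genes passed, and 5 of 7 were higher at an unadjusted p under 0.05 (4 of the 6 other than Cd160), against 6.82% of all genes: Cd160 (log2 fold change 2.43, SE 0.52, adjusted p = 0.313), Lag3 (1.29, SE 0.41), Havcr2 (0.92, SE 0.24), Entpd1 (0.85, SE 0.30) and Cd244 (0.68, SE 0.27). On CPM, Cd160, Havcr2 and Cd244 did not overlap, as held for 4.80% of all genes. Lgals9 did not differ beyond its spread, at 139.6 ± 48.8 TPM in ALPN-202 tumors and 148.8 ± 17.0 TPM in anti-PD-L1 tumors (SD, n = 4 each), with an edgeR log2 fold change of 0.14 (SE 0.16). DESeq2 called Cd160 and Havcr2 (1.53% of all genes), limma-voom called none, and without the length-trend libraries edgeR called Lag3, Havcr2, Cd160 and Entpd1 (5.20% of all genes).

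Cd3e itself, the T cell gene used as denominator, had 24.1, 18.1, 22.3 and 5.82 TPM in ALPN-202 tumors, 5.62, 10.2, 7.47 and 2.50 TPM in anti-PD-L1 tumors and 2.61, 7.66, 4.97 and 8.22 TPM in Fc control tumors. In edgeR its log2 fold change was 1.66 (SE 0.44) for ALPN-202 against Fc control (adjusted p = 0.297), which lies between those of Cd160 and Lag3. Its counts were 15 to 144 reads per tumor, so that the ratios carry the counting error of a second gene.

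Relative to Cd3e, all members but Cd160 had a lower mean log2 ratio in ALPN-202 tumors than in Fc control tumors. Lag3 moved least, at 2.30, 1.96, 2.27 and 1.55 TPM per TPM of Cd3e in ALPN-202 tumors and 3.08, 2.42, 2.13 and 2.92 in Fc control tumors (log2 difference −0.39, exact permutation p = 0.114). Across all 12 tumors the Lag3 ratio stayed within 1.55 to 3.53, while Cd3e itself ran from 2.50 to 24.1 TPM. Lgals9 was the one member whose ratio did not overlap, at 6.12, 9.52, 7.52 and 11.5 in ALPN-202 tumors and 41.8, 16.7, 26.8 and 14.2 in Fc control tumors (log2 difference −1.43, exact permutation p = 0.0286). However, 55.8% of all genes had a ratio to Cd3e that was lower without overlap in this comparison, so a lower ratio is what most genes showed and is nothing particular to Lgals9. Without ALPN-202 replicate 1, 2 or 3 the log2 difference was −1.27, −1.49 and −1.37, still without overlap, and the exact permutation p was 0.0571 each time.

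The ratio differences of the others were −0.80 for Havcr2 (exact permutation p = 0.0857), −0.74 for Entpd1 (p = 0.0857), −1.07 for Cd244 (p = 0.0571), −1.02 for Btla (p = 0.171) and −0.76 for Tox (p = 0.257). Cd160 alone had a higher ratio, 0.165, 0.153, 0.169 and 0.301 in ALPN-202 tumors and 0.429, 0.098, 0.105 and 0.0436 in Fc control tumors (log2 difference 0.68, exact permutation p = 0.343). Its highest value in each group was that of the length-trend library, and leaving out Fc control replicate 1 the difference was 1.31 (exact permutation p = 0.0286). The sign of the Cd160 difference also depended on the pseudocount, at −0.07 with 1 in place of 0.1.

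Against anti-PD-L1 the ALPN-202 ratios were again lower for Lgals9 without overlap (log2 difference −1.59, exact permutation p = 0.0286), as were those of 50.0% of all genes. The ratio differences of the other members ran from −1.03 (Cd244) to 0.69 (Cd160) with p from 0.0571 to 0.257 in the exact permutation test. Without the length-trend libraries the difference was −1.74 for Lgals9 (exact permutation p = 0.0571) and −1.47 for Btla (exact permutation p = 0.0286), on few reads. The share of all genes was not counted at that setting. Between anti-PD-L1 and Fc control, the ratios of the 8 members differed by −0.04 to 0.24 on the log2 scale (exact permutation p from 0.543 to 1).

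**Figure D3:**
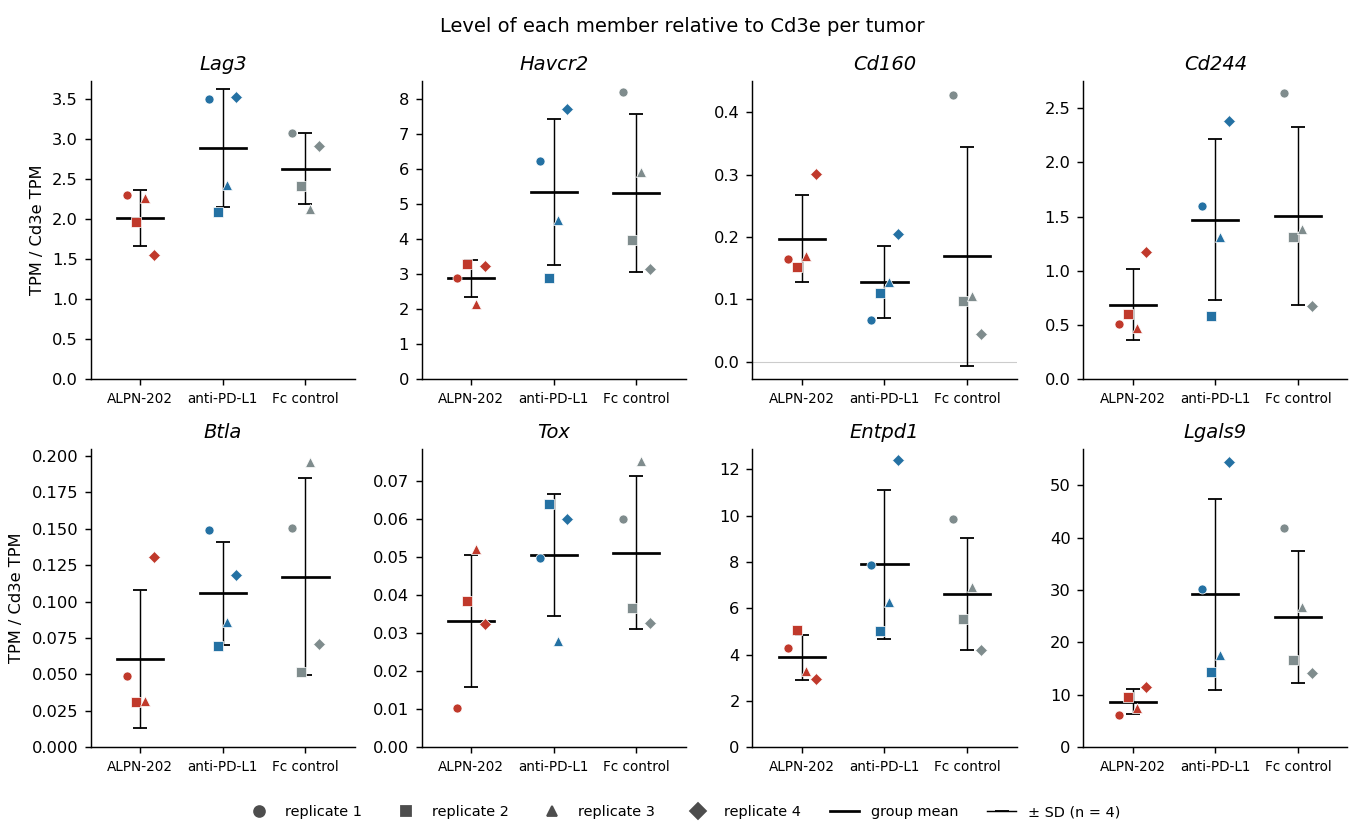
TPM of each member divided by the TPM of Cd3e in the same tumor (linear axis) for the 4 ALPN-202, 4 anti-PD-L1 and 4 Fc control tumors, with marker shapes for the replicate number, thick lines for group means and bars for SD. Lag3 ratios stayed between 1.55 and 3.53, Lgals9 ratios were at most 11.5 in ALPN-202 tumors and at least 14.2 in Fc control tumors, and the Cd160 bars of Fc control are wide because replicate 1 stood at 0.429.

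The members differed in which cell type marker list they followed most closely from tumor to tumor, by small margins for most of them. Members and lists were chosen with earlier results of these data known. The correlations below are across 12 tumors that share 3 treatments and their libraries, and are descriptions. Lag3 was the closest to Cd3e, with a Pearson r of log2 CPM of 0.95 (rank 10 of 14141 genes), and an r of 0.90 once group means were removed. Its nearest genes were Cd27, a costimulatory receptor of T cells (r = 0.98), Cndp2 (r = 0.975) and Cd8b1, a chain of CD8 (r = 0.97). Against the means of marker lists, Lag3 had an r of 0.96 with the T cell markers and 0.93 with the 11 macrophage and monocyte markers. For Havcr2 these were 0.915 and 0.96, and for Entpd1 0.895 and 0.95, so that all 3 genes followed both lists closely. The r to Cd3e alone was 0.87 for Havcr2 and 0.85 for Entpd1. Without the length-trend libraries it was 0.97 for Lag3, 0.91 for Havcr2 and 0.93 for Entpd1. Correlations with marker lists and nearest genes are given over all 12 tumors only.

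The genes most like Havcr2 were H2-T24, a nonclassical MHC class I gene (r = 0.98), Ctsc, the protease that activates granzymes (r = 0.97), and Cytip (r = 0.97). Those most like Entpd1 were Icam1, an adhesion molecule (r = 0.986), Lcp1, an actin-bundling protein of leukocytes (r = 0.985), and Aoah, an enzyme of myeloid cells that inactivates endotoxin (r = 0.98). Entpd1 also followed the regulatory T cell markers at 0.965. Cd160 was closest to the NK cell markers (r = 0.89), little above the conventional dendritic cell markers (r = 0.85). Its nearest genes were Il10rb (r = 0.955), Rp2h (r = 0.946) and the chemokine receptor gene Cxcr6 (r = 0.92). With group means removed, the r of Cd160 to Cd3e fell from 0.76 to 0.16. Cd160 rested on 3 to 12 reads in the anti-PD-L1 and Fc control tumors, and the part of counting error in this fall was not tested. A fall was not particular to Cd160. The r to Cd3e also fell for Cd244 (0.57 to 0.058), Btla (0.53 to 0.22) and Lgals9 (0.42 to 0.145), and less for Havcr2 (0.87 to 0.64) and Entpd1 (0.85 to 0.71). Without the length-trend libraries the r of Cd160 to Cd3e was 0.88.

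Cd244 also followed the NK cell markers (r = 0.81), and the conventional dendritic cell markers at 0.73. The gene most like it was Sh2d1b1, which encodes EAT-2, an adaptor of the receptor family that 2B4 belongs to (r = 0.95), before Rap2b (r = 0.94) and Slamf9 (r = 0.935). Over all 12 tumors Lgals9 had the lowest r to Cd3e of the 7 (0.42). Without the length-trend libraries it was 0.62, and Btla was lowest at 0.54. The genes nearest to Lgals9 were Scarb2 (r = 0.90), Zfp677 (r = 0.891) and the NK receptor gene Klrb1c (r = 0.88). Btla was nearest to Il33, Mmp3 and Fcna (r = 0.875, 0.836 and 0.80), on few reads.

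**Figure D4:**
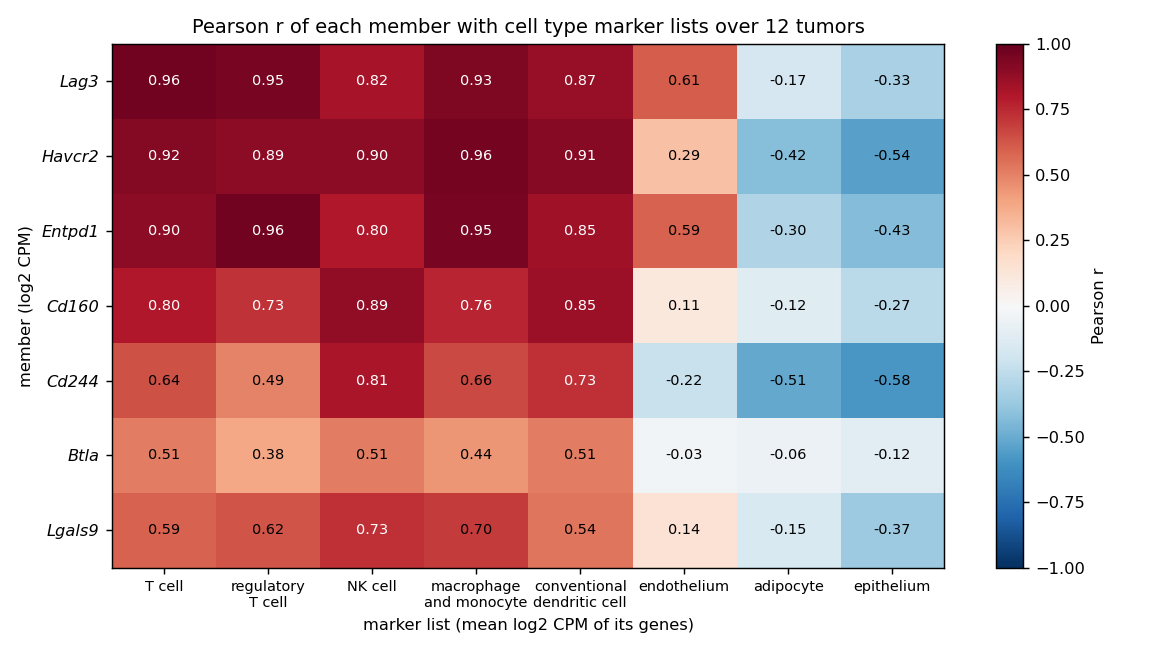
Pearson r over the 12 tumors between the log2 CPM of each of 7 members (rows) and the mean log2 CPM of cell type marker lists (columns), printed in each cell and coloured from −1 (blue) to 1 (red). The highest r in the row of Lag3 is with the T cell list, that of Havcr2 with the macrophage and monocyte list, that of Entpd1 with the regulatory T cell list, and those of Cd160 and Cd244 with the NK cell list.

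Markers of other cells moved in the same comparison. For ALPN-202 against Fc control, all 13 tested T cell genes, 5 of 7 NK cell genes, 6 of 11 macrophage and monocyte genes, 4 of 8 dendritic cell genes and 4 of 6 regulatory T cell genes were higher at an unadjusted p under 0.05, as were 7.20% of all genes, and none passed after adjustment. Summed T cell markers were 106 to 358 TPM in ALPN-202 tumors and 50.1 to 92.1 TPM in Fc control tumors, NK cell markers 75.5 to 193 TPM against 22.1 to 65.3 TPM, and macrophage and monocyte markers 3150 to 9617 TPM against 4087 to 6272 TPM. The median log2 fold change was 1.79 over the T cell genes, 1.41 over the NK cell genes and 0.74 over the macrophage and monocyte genes, beside 0.04 over all genes tested. The part of these cells in the differences of Lag3, Havcr2, Cd160 and Entpd1 was not tested. For anti-PD-L1 against Fc control, no gene of these 5 lists had an unadjusted p under 0.05.

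The ligands and enzymes around the members were followed as a list of 15 genes, of which 13 were tested. For ALPN-202 against Fc control, 7 were higher at an unadjusted p under 0.05 (7.20% of all genes) and 1 was lower, with a median log2 fold change of 0.79, and none passed after adjustment. Those higher were Tnfrsf14, which encodes HVEM, the ligand of BTLA and CD160 (log2 fold change 1.05, SE 0.26), Cd48, the ligand of 2B4 (0.79, SE 0.30), Adora2a, a receptor for the adenosine that CD39 and CD73 produce (1.17, SE 0.42), and the class II genes H2-Aa, H2-Ab1, H2-Eb1 and Cd74 that serve as or with the ligand of LAG-3. Hmgb1, a nuclear protein described as a TIM-3 partner, was lower, at 7.64 ± 1.56 TPM in ALPN-202 tumors and 14.0 ± 2.47 TPM in Fc control tumors (SD, n = 4 each). Its log2 fold change was −0.73 (SE 0.14, adjusted p = 0.283). Hmgb1 was also lower in anti-PD-L1 than in Fc control tumors, at −0.45 (SE 0.14, edgeR unadjusted p = 0.00774, adjusted p = 0.826), so a lower level was not particular to ALPN-202. Nt5e, the gene of CD73, the next enzyme after CD39, had a log2 fold change of 0.42 (SE 0.20) and an unadjusted p above 0.05.

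Of 9 tested genes for other inhibitory receptors, 7 were higher in ALPN-202 than in Fc control tumors at an unadjusted p under 0.05, a level that 7.20% of all genes reached (median log2 fold change 1.48), led by Cd200r1 (1.34, SE 0.29), Pdcd1, the gene of PD-1 (1.89, SE 0.46), Ctla4 (1.51, SE 0.39) and Cd96 (1.85, SE 0.54). Pdcd1 stood at 28.6 ± 7.58 TPM in ALPN-202 tumors and 7.96 ± 2.11 TPM in Fc control tumors (SD, n = 4 each). Of 12 tested transcription factor genes linked to TOX, 5 were higher (median 0.92), among them Id2 (1.06, SE 0.30), Nr4a3 (1.22, SE 0.41), Prdm1 (0.85, SE 0.29) and Tbx21 (1.55, SE 0.55). Of 6 tested signaling adaptors and phosphatases, 1 was higher at that level: Ptpn6, the gene of SHP-1 (0.85, SE 0.29), while Sh2d1b1 was at 0.75 (SE 0.44). Of 9 tested genes of cytotoxicity and the IFNγ response, 7 were higher (median 1.25), with Gzmb at 1.98 (SE 0.36), Prf1 at 1.44 (SE 0.32) and Nkg7 at 1.51 (SE 0.34). None of the genes in these 4 lists passed after adjustment.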

How the data were processed

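RNA-seq of 12 MC38/hPD-L1 tumors was used, 4 per treatment. The raw counts, as deposited by the authors, are reads per gene from htseq-count on the mouse genome. The Methods name STAR as aligner, but per the labels the tools were TopHat 1.4.1 and HTSeq 0.4.1, on NCBIM37, and which aligner was used stays unclear. The TPM values were deposited by the authors and correct for gene length, and each column sums to 999019.4 to 999705.7. Of 33018 count lines, 226 repeated a gene name and 25 names read as dates, none of a member. No per-sample column was left out.

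Counts were normalized by TMM, filtered by filterByExpr (minimum count 10, minimum total 15) and tested by edgeR 4.0.16 (R 4.3.3; 1 quasi-likelihood fit over the 12 tumors), with p adjusted by Benjamini-Hochberg over 14142 genes at 0.05. Members were tested singly on log2(TPM + 0.1), and on the log2 ratio to Cd3e with 0.1 added to both, by exact two-sided permutation, over 8 genes and 3 comparisons with raw p. With 4 against 4 the smallest p is 0.0286. Likeness was Pearson's r of log2 CPM (prior count 2). CPM used library totals adjusted by TMM. The alternatives were RLE, library size only, no filter, a length-trend offset, DESeq2 1.42.0, limma-voom (limma 3.58.1), the replicate block, Dunnett's comparison, CPM, a pseudocount of 1, other T cell denominators and tumors left out. Scripts were tested on simulated data. Python 3.11.15, SciPy 1.17.1, NumPy 2.4.6, pandas 2.3.3 and Matplotlib 3.10.9 were used.

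The members, the 17 gene lists and the libraries left out were chosen with earlier results of these data known. Named genes were the 8 members, Cd3e, the 3 genes most like each tested member without predicted genes, and up to 4 genes of each list with the smallest edgeR p, to which the class II genes, Nt5e and Sh2d1b1 were added after their values were seen. The paper describes these tumors as part of the same study as its tumor growth curves, with mice assigned at random. The p-values therefore measure the spread between tumors of that study. Promoter sequences are from RefSeq (GRCm38.p6).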

Additional observations from a re-analysis of the deposited data

Results flagged for a closer look

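In 51 sets of 4 tumors examined for a value far from the other 3, Dixon's criterion singled out 2, where chance flags about 1 in 20. Both were Cd160 divided by Cd3e on TPM. In the ALPN-202 group, replicate 4 stood at 0.3013, against 0.1525 to 0.1693 in the other 3 tumors. In the Fc control group, replicate 1 stood at 0.4285, against 0.0436 to 0.1046 in the other 3. These are the 2 libraries with a trend on gene length, and the annotated transcript of Cd160 is 1.80 times as long as that of Cd3e. In both libraries long genes stood below and short genes above the median of the tumors, while both ratios were high. The 2 ratios rested on 12 and 11 reads of Cd160, and the part of the trend or of counting error in them was not tested.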

How the results depend on the processing

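The count of members passing in edgeR was 0 for ALPN-202 against Fc control, and became 2 with DESeq2, 4 without the 2 length-trend libraries, 3 without the 4 tumors high in adipocyte genes and 0 to 3 when each tumor was left out in turn. That last 3 came from leaving out ALPN-202 replicate 4, which the length-trend and adipocyte exclusions also remove. For ALPN-202 against anti-PD-L1 the count became 2 with DESeq2 and 4 without the length-trend libraries, and was 0 whichever single tumor was left out. With DESeq2 and without the length-trend libraries, Cd160 was among those counted in both comparisons. With all 12 tumors it passed the filter only through the ALPN-202 group. The members with an exact p under 0.05 in TPM (1 in each ALPN-202 comparison) became 2 against Fc control and 3 against anti-PD-L1 on CPM, 4 against anti-PD-L1 without the length-trend libraries, and 1 to 4 in both when single tumors were left out, with the 4 from leaving out ALPN-202 replicate 4. Counted by non-overlap alone, 6 members were higher than Fc control and 5 higher than anti-PD-L1 without that tumor, and 1 without any other. Without that tumor 2.97% of all genes passed in edgeR against Fc control, where 0.00% did with all 12. The share of all genes without overlap was not counted with a tumor left out, so these counts are not a result about the members. For anti-PD-L1 against Fc control the count by p was 0 to 1, the 1 being Lgals9 without anti-PD-L1 replicate 3, and by non-overlap Entpd1 without anti-PD-L1 replicate 4 and Lgals9 without Fc control replicate 3 were also higher. The members with an exact p under 0.05 for the ratio to Cd3e (1 in each ALPN-202 comparison) became 2 against Fc control with Cd3g as denominator, 3 against Fc control and 2 against anti-PD-L1 with the mean of 4 CD3 chains, and 3 and 4 with Cd8a. All were lower, as were, without overlap, 48.3% of all genes with Cd3g, 69.2% and 62.7% with the 4 chains, and 60.9% and 65.6% with Cd8a. With single tumors left out the count was 0 to 2 against Fc control and 0 to 4 against anti-PD-L1, where a 0 marks Lgals9 at a p of 0.0571 and still without overlap in the exact permutation test. The share of all genes was not counted there either. The cause of these changes was not tested. With replicate number as a block the edgeR counts stayed at 0. Same-numbered tumors did not pair, since correlations of their deviations were −0.479 to 0.459 and 1 of 12 correlated best with its own number. For ALPN-202 against anti-PD-L1, the median log2 fold change of all genes was −0.074 with library size only and 0.072 with TMM.

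Of 1120 recomputed values, 89 changed sign, 81 of them between anti-PD-L1 and Fc control, where the estimates were near 0. The edgeR log2 fold changes there were, for Lag3, −0.077 with the replicate block and −0.063 without the length-trend libraries. For Havcr2 they were 0.0068 with RLE, 0.0355 with library size only, 0.0356 with the length trend removed, 0.0071 with DESeq2, 0.053 without the length-trend libraries and 0.15 without the adipocyte-high tumors. For Cd160 they were 0.041 with limma-voom and 0.54 without the length-trend libraries, and for Cd244 0.0285 without these and 0.024 without the adipocyte-high tumors. For Btla they were 0.0061 with RLE, 0.018 with library size only, 0.0012 with DESeq2 and 0.23 without the adipocyte-high tumors. On CPM the differences were −0.062 for Havcr2, −0.065 for Cd160, −0.11 for Cd244 and −0.048 for Btla. On TPM without the length-trend libraries they were −0.0515 for Lag3, −0.063 for Btla and −0.14 for Tox. The ratio differences without these libraries were 0.62 for Cd160, 0.29 for Cd244, 0.18 for Btla and 0.10 for Tox. With Cd3g as denominator they were −0.10 for Lag3, −0.20 for Havcr2 and −0.051 for Lgals9, with the mean of 4 CD3 chains −0.064 for Havcr2, with Cd8a 0.0073 for Cd160 and 0.0057 for Tox, and with limma 0.034 for Btla. In the other comparisons, the Cd160 ratio difference with a pseudocount of 1 was −0.069 against Fc control and −0.023 against anti-PD-L1. Lgals9 in ALPN-202 against anti-PD-L1 was −0.0026 with the length trend removed in edgeR, 0.15 on CPM and 0.14 on TPM without the length-trend libraries.

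Leaving out single tumors, the edgeR log2 fold changes for anti-PD-L1 against Fc control ran from −0.17 to 0.28 for Lag3, −0.14 to 0.15 for Havcr2, −0.45 to 0.52 for Cd160, −0.29 to 0.022 for Cd244, −0.24 to 0.28 for Btla and −0.024 to 0.21 for Lgals9. The TPM differences there ran from −0.0515 to 0.48 for Lag3, −0.069 to 0.22 for Cd244, −0.0899 to 0.40 for Btla, −0.18 to 0.38 for Cd160 and −0.32 to 0.38 for Tox. The ratio differences ran from −0.20 to 0.28 for Havcr2, −0.48 to 0.62 for Cd160, −0.37 to 0.35 for Cd244, −0.34 to 0.30 for Btla, −0.19 to 0.26 for Tox, −0.0084 to 0.45 for Entpd1 and −0.21 to 0.455 for Lgals9. The TPM difference of Lgals9 ran from −0.053 to 0.40 for ALPN-202 against Fc control and from −0.31 to 0.14 for ALPN-202 against anti-PD-L1. For Lag3, Havcr2, Cd160 and Entpd1, the edgeR log2 fold change stayed above 0 under every setting in both ALPN-202 comparisons. Depth limits Tox, Btla and Cd160, which rest on at most 43 reads in any tumor.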
